A study of Homo sapiens with 23 samples.

Results

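Fibronectin (*FN1*), the fibrillins *FBN1* and *FBN2*, tenascin C (*TNC*), the latent TGF-beta binding proteins *LTBP1*, *LTBP2*, *LTBP3* and *LTBP4*, thrombospondin 1 (*THBS1*) and the matricellular glycoprotein *SPARC* are the 10 genes described here, out of 61806 genes counted in the main table. They were chosen by name, as the fibronectin, fibrillin, tenascin and microfibril genes of the extracellular matrix (ECM). The rule used no measured value, but earlier results of these data were known when the genes were chosen. The shares called below therefore do not come from a choice blind to the data. All 10 passed the filter on low counts in each of the 4 comparisons.

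Fibronectin is a secreted glycoprotein that cells assemble into fibrils through integrins, and it serves as a scaffold on which other matrix proteins are deposited. Fibrillins polymerise into microfibrils, the thin filaments that carry elastin in elastic tissues such as lung. Latent TGF-beta binding proteins are relatives of the fibrillins. LTBP1, LTBP3 and LTBP4 tether the inactive form of the cytokine TGF-beta to the matrix, whereas LTBP2 does not bind it. Tenascin C, thrombospondin 1 and SPARC are matricellular proteins, which modulate how cells attach to the matrix rather than building it.

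RNA was sequenced from A549, an established human lung adenocarcinoma cell line, after depletion of THUMPD3, an enzyme that places a methyl group on guanosine in tRNA. Groups were siD3 #3 (an siRNA against *THUMPD3*, harvested on day 5) with siControl, and shD3 #1 and shD3 #4 (2 shRNAs, harvested on day 6) with sh1Control and sh4Control respectively, all from 17 libraries with 3 biological replicates per group except siControl, of which 2 libraries were analysed here. A further 6 libraries, named deep here, hold 3 of shD3 #1 and 3 of sh1Control, sequenced more deeply, and their harvest day and whether they share RNA with the first libraries are not given in the sources used here. Control libraries carry the genotype WT in the labels and the knockdown libraries THUMPD3 knockdown. The shRNAs came from the lentiviral pLKO-Tet-On system, which is switched on by doxycycline, in transduced cells kept under puromycin selection. The methods describe the controls as untreated, and neither they nor the labels say whether the sh controls carried a construct or received doxycycline, so that an effect of these and one of the loss of THUMPD3 cannot be told apart.

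Depth was 9854294 to 22101059 counts per library in the first table and 27285889 to 59974740 in the deep table. *THUMPD3* itself was reduced to 51.3% of its control in shD3 #1, 31.4% in shD3 #4, 17.1% in siD3 #3 and 49.6% in deep shD3 #1, with no overlap between groups. Among 8 markers of lung epithelial carcinoma cells 7 stood at 1 cpm or more in every group, where cpm is the count scaled to library size by TMM, and the surfactant gene *SFTPB* was at or near 0. Of 8 fibroblast markers 2 to 4 reached 1 cpm in a group, and the summed level of the list ranged from 8.47 to 10.5 cpm in sh1Control and from 18.1 to 20.1 cpm in shD3 #1. The corresponding ranges were 6.76 to 10.15 and 12.5 to 15.5 cpm for shD3 #4, 4.90 to 7.14 and 9.19 to 11.75 cpm for siD3 #3, and 10.9 to 11.9 and 32.2 to 33.9 cpm for the deep libraries. *DCN* and *COL1A2*, which fibroblasts express strongly, stayed at or below 0.0933 cpm on average in every group. Some other markers of the list were higher in the knockdowns. *COL3A1* stood at 0.594 and 6.44 cpm in sh1Control and shD3 #1, and *LUM* at 1.47 and 4.89 cpm in sh4Control and shD3 #4. *COL1A1* stood at 2.965 and 4.83 cpm in siControl and siD3 #3, and at 8.03 and 26.4 cpm in the deep libraries. Others were lower, with *THY1* at 1.68 and 1.32 cpm in sh1Control and shD3 #1, and at 2.66 and 0.674 cpm in the deep libraries. *PDGFRB* was lower in both shRNA knockdowns of the first libraries, at 0.1415 and 0.0446 cpm in sh1Control and shD3 #1 and 0.1215 and 0.0506 cpm in sh4Control and shD3 #4. It was higher in siD3 #3, at 0.0272 and 0.297 cpm in siControl and siD3 #3. In the deep libraries it was higher as well, at 0.0922 cpm in the controls and 0.156 cpm in shD3 #1. Values this low rest on few counts. No endothelial marker reached 1 cpm, and neither did any immune marker in the first libraries, while *CD68* stood at 46.7 cpm in the deep controls and 94.5 cpm in deep shD3 #1. In the first sh1Control libraries *CD68* was at 0.0193 cpm. The other immune markers, *PTPRC*, *CD3E* and *LYZ*, stayed at or below 0.510 cpm on average in the deep groups. The first and the deep libraries were counted separately, and the source of the gap in *CD68* between them was not tested. The part of these markers in the results was not tested. In such bulk libraries fewer cells of a type and less RNA per cell cannot be told apart.

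The genes did not move as one block. A gene was called when its Benjamini-Hochberg adjusted p-value in the edgeR quasi-likelihood test, taken over all genes tested, was below 0.05 and its change was at least 1.5-fold in either direction. In shD3 #1, 6 of the 10 were called higher and 1 lower, against 14.5% and 14.6% of all 16456 genes tested. In siD3 #3, 7 were called higher and 0 lower, against 12.5% and 9.42% of 17032 genes. shD3 #4 gave a more even split, with 3 higher and 2 lower against 8.0% and 4.49% of 16493 genes. The deep libraries of shD3 #1 again gave 6 higher and 1 lower, against 15.0% and 14.1% of 18763 genes. Before the fold threshold was applied, the adjusted p-value was below 0.05 for 10, 7, 7 and 8 of the genes in shD3 #1, shD3 #4, siD3 #3 and deep shD3 #1. The share of all genes below 0.05 without the fold threshold was not computed. These counts therefore have no background and cannot be read as particular to the 10 genes.

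The median log2 fold change of the 10 genes was 0.75 in shD3 #1, 0.81 in siD3 #3 and 1.06 in deep shD3 #1, and −0.03 in shD3 #4, where that of all genes tested was −0.006, 0.026, −0.015 and 0.008 respectively. *FN1*, *LTBP1* and *SPARC* were called higher in all 3 knockdowns of the first libraries, as were 160 of 15656 genes, or 1.02%. None of the 10 was called lower in all 3, as 126 genes, or 0.805%, were. *THBS1* alone was called in none, and *FBN2* alone was called in opposite directions. The change itself differed between the 3 knockdowns for 7 of the 10 genes in a test of the interaction of knockdown and condition, against 52.4% of 18672 genes.

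**Figure D1:**
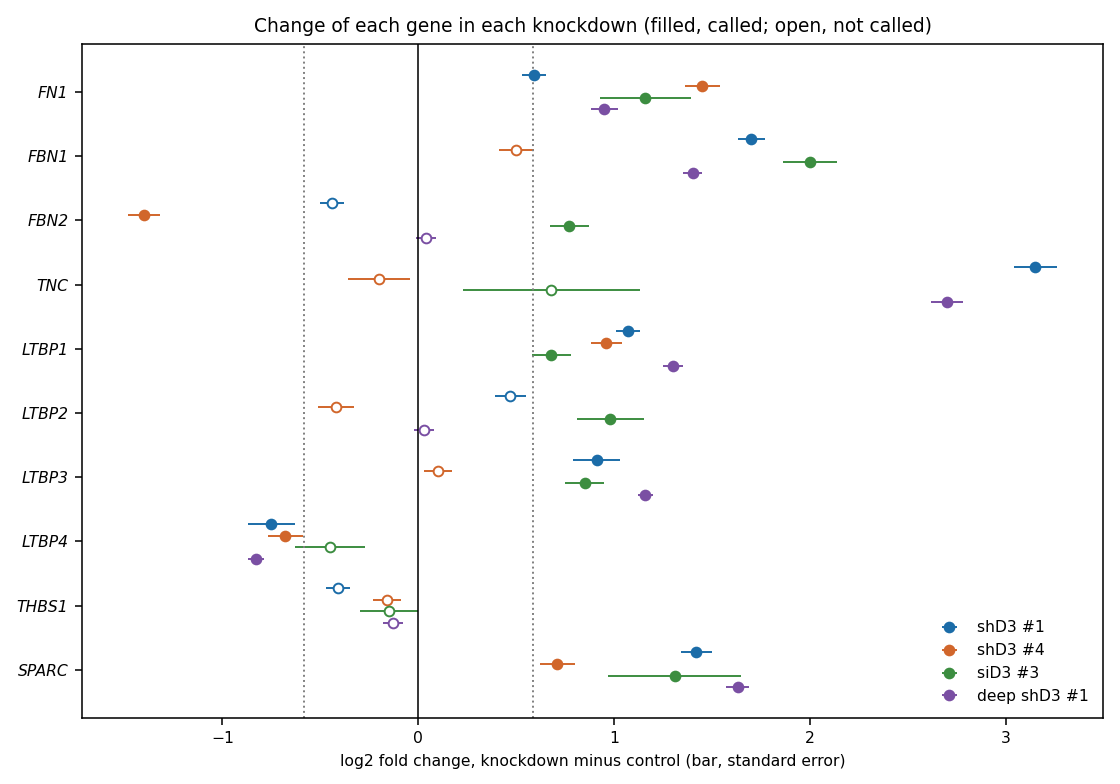
Log2 fold change of each gene, knockdown minus control, with its standard error, in shD3 #1, shD3 #4, siD3 #3 and deep shD3 #1. Filled points were called, and dotted lines mark the fold threshold in either direction. *FN1*, *LTBP1* and *SPARC* lie right of the line in all 4 comparisons, *TNC* spans from −0.20 to 3.15 and *FBN2* from −1.40 to 0.77.

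*FN1* (ENSG00000115414, chr2:215360440-215436073, minus strand) encodes fibronectin. It stood at 577, 609 and 539.8 cpm in shD3 #1 against 368, 396.5 and 379 cpm in sh1Control. In shD3 #4 it reached 881, 862 and 915 cpm against 281, 299 and 395 cpm in sh4Control. Every knockdown library was above every control library, and shD3 #4 had the highest mean among the first libraries. siD3 #3 gave 828, 848 and 495 cpm against 344 and 305.5 cpm in siControl, and deep shD3 #1 gave 1489, 1217 and 1420.0 cpm against 719.7, 646 and 765 cpm in its controls. The groups did not overlap in these either, but siD3 #3 replicate 3 lay well below the other two libraries of its group. Log2 fold changes were 0.59 ± 0.06 (SE) in shD3 #1 (adjusted p = 5.40e-07), 1.45 ± 0.09 in shD3 #4 (adjusted p = 2.05e-12), 1.16 ± 0.23 in siD3 #3 (adjusted p = 0.00720) and 0.95 ± 0.07 in deep shD3 #1 (adjusted p = 4.07e-08). The value in shD3 #1 sits at the fold threshold and drops under it, to 0.55 or 0.58, when shD3 #1 replicate 2 or sh1Control replicate 1 is left out. It was 0.58 as well under both other filters on low counts and in 1 fit of all 17 libraries. Without siControl replicate 2 the adjusted p in siD3 #3 was 0.0695. The rise was larger in shD3 #4 than in shD3 #1 by 0.86 ± 0.20 (adjusted p = 0.00215), and larger in siD3 #3 than in shD3 #1 by 0.58 ± 0.22 (adjusted p = 0.0424), while siD3 #3 and shD3 #4 differed by −0.28 ± 0.22 (adjusted p = 0.380).

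Fibronectin mRNA is alternatively spliced, and the deep libraries are the set that the study used for splicing. The exon at issue is exon 25 of 46 in the canonical GENCODE transcript, which encodes the extra domain B. It lies at chr2:215392931-215393203 on the minus strand of GRCh38, spans 273 bases or 91 codons without a remainder, and makes up 3.25% of the 8390 bases of the transcript. The deposited values are sums over the whole gene and do not resolve this exon, so the changes given for *FN1* cover transcripts with and without it. It is shown in transcript orientation because it is the part of fibronectin whose inclusion these gene counts leave unmeasured, with exon 25 in capitals and 12 bases of each neighbouring exon in lower case.
FN1 exon 25: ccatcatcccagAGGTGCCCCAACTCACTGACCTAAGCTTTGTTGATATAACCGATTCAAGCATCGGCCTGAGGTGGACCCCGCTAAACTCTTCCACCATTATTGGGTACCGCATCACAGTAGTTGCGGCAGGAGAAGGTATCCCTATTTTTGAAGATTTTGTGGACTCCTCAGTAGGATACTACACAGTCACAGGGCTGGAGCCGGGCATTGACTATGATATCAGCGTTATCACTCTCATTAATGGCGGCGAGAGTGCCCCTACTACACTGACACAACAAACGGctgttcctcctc

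*FBN1* (ENSG00000166147, chr15:48408313-48645721, minus strand), the main fibrillin of adult microfibrils, rose in shD3 #1 and siD3 #3. The shD3 #1 libraries held 74.5, 76.9 and 73.8 cpm and the sh1Control libraries 25.2, 23.02 and 21.1 cpm. Those of siD3 #3 held 78.1, 73.7 and 63.3 cpm against 15.9 and 20.2 cpm. The knockdown libraries of each pair lay about 3-fold or more above the controls, with a narrow spread. In shD3 #4 the values were 26.0, 28.1 and 26.6 cpm against 19.7, 16.2 and 21.3 cpm, apart from the controls but by much less. The log2 fold changes were 1.70 ± 0.07 in shD3 #1 (adjusted p = 4.11e-11), 2.00 ± 0.14 in siD3 #3 (adjusted p = 6.35e-05) and 0.50 ± 0.09 in shD3 #4 (adjusted p = 5.00e-05), the last under the fold threshold. The change in shD3 #4 minus that in shD3 #1 was −1.20 ± 0.15 (adjusted p = 1.76e-06), and siD3 #3 exceeded shD3 #4 by 1.52 ± 0.16 (adjusted p = 2.90e-07). The deep libraries gave 84.5, 90.6 and 81.3 cpm against 32.1, 32.3 and 32.5 cpm, a log2 fold change of 1.40 ± 0.05 (adjusted p = 1.86e-11).

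*FBN2* (ENSG00000138829, chr5:128257909-128659185, minus strand), the fibrillin best known from developing tissue, moved in different directions. In shD3 #4 it stood at 98.9, 83.9 and 94.5 cpm against 226, 225 and 280.4 cpm in sh4Control. In siD3 #3 it stood at 265, 240.0 and 236 cpm against 152 and 137 cpm in siControl. All shD3 #4 libraries were thus below, and all siD3 #3 libraries above, their own controls. The log2 fold change was −1.40 ± 0.08 in shD3 #4 (adjusted p = 4.92e-13) and 0.77 ± 0.10 in siD3 #3 (adjusted p = 0.00110), and the difference between them, 2.18 ± 0.13, had an adjusted p of 1.24e-10. shD3 #1 held 180.2, 184.5 and 169 cpm against 242, 252 and 232 cpm, a log2 fold change of −0.44 ± 0.06 (adjusted p = 1.22e-05) that did not reach the fold threshold. The deep libraries of the same shRNA overlapped with their controls, at 357, 328 and 336 cpm against 328, 349.5 and 316 cpm, with a log2 fold change of 0.04 ± 0.05 (adjusted p = 0.495). The control groups also differed in this gene, with means of 238 and 246 cpm in sh1Control and sh4Control and 148.5 cpm in siControl under 1 scaling of all 17 libraries.

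**Figure D2:**
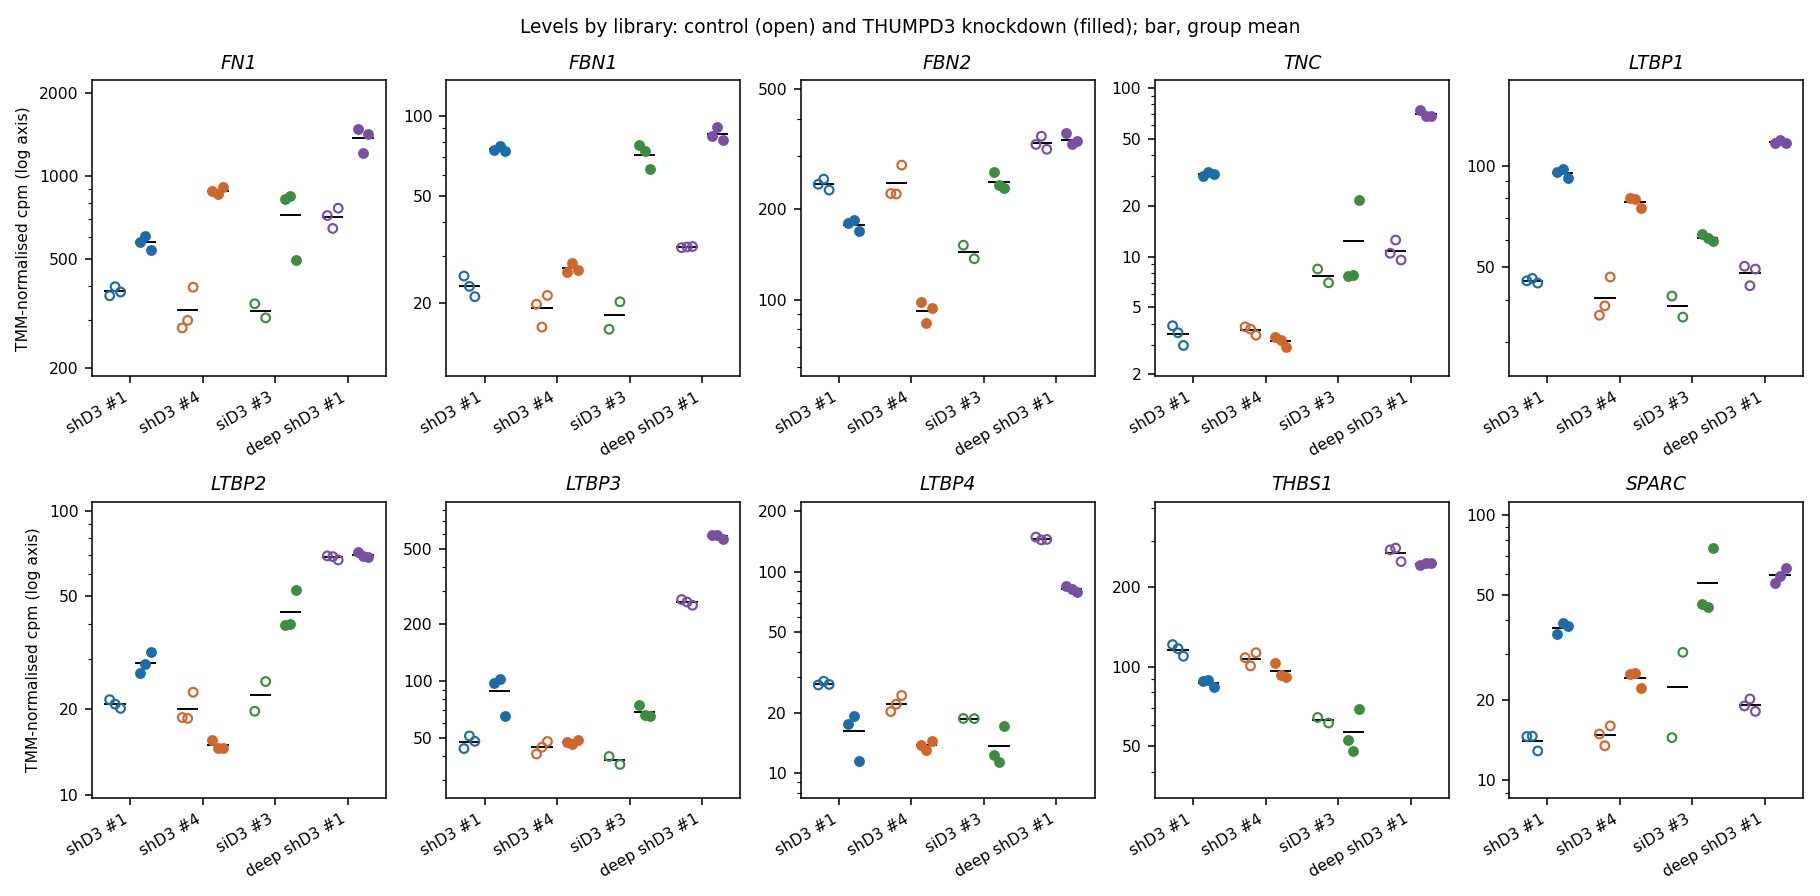
TMM-normalised cpm of each gene in each library, on log axes with their own range per panel, with controls open, knockdown libraries filled and a bar at each group mean. For *FN1*, *FBN1*, *LTBP1* and *SPARC* the knockdown points lie above the control points in all 4 comparisons, whereas *FBN2* falls in shD3 #4 and rises in siD3 #3. siD3 #3 replicate 3 lies apart from the other 2 libraries of its group for *FN1*, *TNC* and *SPARC*.

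*TNC* (ENSG00000041982, chr9:115019575-115118207, minus strand) encodes tenascin C, which is low in most adult tissue and deposited in wounds and tumours. It was the member with the largest change in shD3 #1 and was called there alone among the first knockdowns. The shD3 #1 libraries held 30, 31.6 and 30.9 cpm against 3.89, 3.54 and 2.97 cpm in sh1Control. The deep libraries of this shRNA held 74.1, 68.1 and 68.4 cpm against 10.5, 12.5 and 9.55 cpm. Both sets rose several-fold with tight replicates, with log2 fold changes of 3.15 ± 0.11 (adjusted p = 3.11e-12) and 2.7 ± 0.08 (adjusted p = 2.23e-12). In shD3 #4 the level was 3.36, 3.21 and 2.93 cpm against 3.83, 3.72 and 3.42 cpm, a log2 fold change of −0.20 ± 0.16 (adjusted p = 0.318). The siD3 #3 libraries held 7.69, 7.82 and 21.6 cpm against 8.44 and 6.997 cpm, so that replicate 3 alone lay above the controls. The log2 fold change there was 0.68 ± 0.45 (adjusted p = 0.289), and without replicate 3 it was −0.01 (adjusted p = 0.965). The change in shD3 #4 minus that in shD3 #1 was −3.35 ± 0.44 (adjusted p = 4.03e-06) on the log2 scale, and that in siD3 #3 minus shD3 #1 was −2.46 ± 0.41 (adjusted p = 7.82e-05).

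*LTBP1* (ENSG00000049323, chr2:32946953-33399509, plus strand) binds latent TGF-beta and targets it to fibronectin and fibrillin fibrils. It stood at 95.9, 98.0 and 92.2 cpm in shD3 #1 against 45.5, 46.2 and 44.8 cpm in sh1Control, and at 80.0, 79.6 and 74.9 cpm in shD3 #4 against 35.9, 38.3 and 46.7 cpm in sh4Control. siD3 #3 gave 62.8, 60.8 and 59.8 cpm against 41.0 and 35.5 cpm. It was thus the member with the most even rise, and no knockdown library overlapped with its controls. The log2 fold changes were 1.07 ± 0.06 (adjusted p = 9.90e-10), 0.96 ± 0.08 (adjusted p = 3.04e-10) and 0.68 ± 0.10 (adjusted p = 0.00166) in shD3 #1, shD3 #4 and siD3 #3. Without siControl replicate 2 the last was 0.57, just under the threshold. The deep libraries gave 117, 119.6 and 117 cpm against 50.2, 43.97 and 49.3 cpm, a log2 fold change of 1.30 ± 0.05 (adjusted p = 4.87e-11). The change in siD3 #3 minus that in shD3 #1 was −0.38 ± 0.12 (adjusted p = 0.0192). The test of a difference between the 3 knockdowns gave an adjusted p of 0.0363, and 0.206 without siControl replicate 1. It was also above 0.05 when any sh1Control library, or shD3 #1 replicate 1 or 2, was left out, with adjusted p-values from 0.0534 to 0.0641.

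*LTBP3* (ENSG00000168056, chr11:65538559-65558930, minus strand), which binds latent TGF-beta as well, rose in shD3 #1 and siD3 #3. It stood at 98.1, 103 and 65.8 cpm in shD3 #1 against 44, 51.3 and 48.0 cpm, and at 74.7, 66.3 and 65.3 cpm in siD3 #3 against 39.98 and 36.3 cpm. In shD3 #4 the libraries held 47.9, 46.4 and 49.1 cpm against 41.2, 44.7 and 47.9 cpm, and the groups overlapped. The log2 fold changes were 0.91 ± 0.12 (adjusted p = 1.07e-05), 0.85 ± 0.10 (adjusted p = 0.000728) and 0.10 ± 0.07 (adjusted p = 0.262) in shD3 #1, siD3 #3 and shD3 #4. The change in shD3 #4 minus that in shD3 #1 was −0.80 ± 0.17 (adjusted p = 0.000569), and siD3 #3 exceeded shD3 #4 by 0.76 ± 0.18 (adjusted p = 0.00283). In the deep libraries it rose as well, at 590.2, 591 and 563 cpm against 269.6, 262 and 251.5 cpm, with a log2 fold change of 1.16 ± 0.04 (adjusted p = 2.35e-11).

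*LTBP4* (ENSG00000090006, chr19:40592883-40629818, plus strand), which binds latent TGF-beta and takes part in elastic fibre assembly, was called lower in both shRNA knockdowns. It stood at 17.6, 19.3 and 11.5 cpm in shD3 #1 against 27.4, 28.6 and 27.6 cpm in sh1Control. shD3 #4 gave 13.8, 13.1 and 14.5 cpm against 20.2, 22.0 and 24.3 cpm, and siD3 #3 gave 12.4, 11.3 and 17.1 cpm against 18.7 and 18.6 cpm. Every knockdown library was below every control library, with siD3 #3 replicate 3 closest to them. The log2 fold changes were −0.75 ± 0.12 (adjusted p = 6.81e-05) in shD3 #1, −0.68 ± 0.09 (adjusted p = 5.68e-07) in shD3 #4 and −0.45 ± 0.18 (adjusted p = 0.0914) in siD3 #3. Without siD3 #3 replicate 3 the last was −0.66 (adjusted p = 0.00138) and was called. No difference between the knockdowns passed the test (adjusted p = 0.412), and the 3 pairwise differences were 0.08 ± 0.20, 0.32 ± 0.21 and 0.24 ± 0.22. The deep libraries held 84.9, 82.6 and 79.4 cpm against 149, 144 and 145 cpm, a log2 fold change of −0.83 ± 0.04 (adjusted p = 6.78e-10).

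shD3 #1 replicate 3, at 9854294 counts the shallowest library, was low for both *LTBP3* and *LTBP4*, whose canonical transcripts are the richest in GC of the 10, at 67.7% and 67.2%. The genes tested in shD3 #1 were split into 5 classes of equal size by GC. In this library the median gene of the highest class lay −0.08 on the log2 scale from the mean of the other libraries of its group. That in the lowest class lay at 0.07. Without it the log2 fold changes were 1.08 for *LTBP3* and −0.59 for *LTBP4*, and both were still called. Their levels also stood further apart between the tables than those of other members, with deep controls at 5.46 and 5.25 times the cpm of the first sh1Control libraries, where *LTBP1* was at 1.05 times and the median of 13879 genes was 1.07. The median ratio went from 0.885 in the lowest to 1.31 in the highest GC class. The tables were counted separately, so that levels are compared only within each, and the part of GC content in these ratios was not tested. Within each comparison the median log2 fold change of a GC class stayed between −0.07 and 0.06.

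*LTBP2* (ENSG00000119681, chr14:74498183-74612378, minus strand), which binds fibrillin microfibrils but not latent TGF-beta, was called in siD3 #3 only, at 39.6 to 52.3 cpm against 19.7 to 25.01 cpm in siControl. Its log2 fold change there was 0.98 ± 0.17 (adjusted p = 0.00358), which exceeded that in shD3 #1 by 0.52 ± 0.17 (adjusted p = 0.0201) and that in shD3 #4 by 1.42 ± 0.17 (adjusted p = 2.30e-06). In shD3 #1 it stood at 26.8 to 31.7 cpm against 20.1 to 21.6 cpm, and in shD3 #4 at 14.6 to 15.6 cpm against 18.6 to 22.9 cpm, so that the groups were apart in opposite directions. The log2 fold changes of 0.47 ± 0.08 (adjusted p = 8.64e-05) and −0.42 ± 0.09 (adjusted p = 0.000508) were both under the fold threshold, and the difference between them was −0.90 ± 0.16 (adjusted p = 0.000191). In the deep libraries of shD3 #1 the groups overlapped, at 68.4 to 71.7 cpm against 67.0 to 69.3 cpm (log2 fold change 0.03 ± 0.05, adjusted p = 0.577). *FBN2* and *LTBP2* are the members for which the first and the deep libraries of shD3 #1 fell on different sides of the adjusted p threshold. The sets of libraries were not tested against each other.

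*SPARC* (ENSG00000113140, chr5:151661096-151686975, minus strand), a collagen-binding glycoprotein that modulates cell adhesion, rose in each knockdown. It stood at 35.5, 39.2 and 38.0 cpm in shD3 #1 against 14.6, 14.7 and 12.9 cpm, and at 25.1, 25.3 and 22.2 cpm in shD3 #4 against 14.9, 13.5 and 16.04 cpm. In siD3 #3 the libraries held 45.9, 44.8 and 74.7 cpm against 14.5 and 30.3 cpm in siControl. The groups stayed apart although the pair of siControl libraries differed about as much from each other as from the nearest knockdown library. Log2 fold changes were 1.42 ± 0.08 (adjusted p = 5.75e-10), 0.71 ± 0.09 (adjusted p = 2.54e-07) and 1.31 ± 0.34 (adjusted p = 0.0202) in shD3 #1, shD3 #4 and siD3 #3. Without siControl replicate 1 the last was 0.85 and its adjusted p 0.113, and without siControl replicate 2 it was 1.92. The deep libraries gave 55.5, 58.7 and 63.1 cpm against 19.1, 20.3 and 18.2 cpm, a log2 fold change of 1.63 ± 0.06 (adjusted p = 2.40e-11). The 3 knockdowns did not differ at the threshold (adjusted p = 0.0764), and shD3 #4 minus shD3 #1 was −0.71 ± 0.28. That adjusted p fell below 0.05 when any 1 library of siControl or siD3 #3 was left out, with values from 0.00171 to 0.0497.

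*THBS1* (ENSG00000137801, chr15:39581079-39599466, plus strand) encodes thrombospondin 1, which binds CD36 and CD47 and can activate latent TGF-beta. It was called in no comparison. Its level was 83.9 to 89.1 cpm in shD3 #1 against 109.6 to 121 cpm in sh1Control, a log2 fold change of −0.41 ± 0.06 (adjusted p = 3.92e-05). The groups overlapped in shD3 #4, at 91.8 to 103 cpm against 100.7 to 113 cpm, and in siD3 #3, at 47.8 to 69.4 cpm against 61.2 to 64.2 cpm. The log2 fold changes were −0.16 ± 0.07 (adjusted p = 0.0656) and −0.15 ± 0.15 (adjusted p = 0.502). In the deep libraries it was −0.13 ± 0.05 (adjusted p = 0.0236), at 242.5 to 247 cpm against 250.3 to 282 cpm. Its exons share 7.58% of their bases with *FSIP1* and *THBS1-AS1* on the opposite strand, the largest such share of the 10 genes, and none of the 10 shares exon bases with a gene on its own strand in GENCODE release 44. The libraries were directional, but the strand setting of the counting is not given in the sources used here.

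siD3 #3 replicate 3 was the highest of its group for *TNC*, *LTBP2*, *LTBP4*, *THBS1* and *SPARC* and the lowest for *FN1*, *FBN1*, *FBN2*, *LTBP1* and *LTBP3*. Its *THUMPD3* level, 10.5 cpm, was close to the 11.6 and 12.5 cpm of the other two libraries. The median absolute deviation of its genes from the mean of the other libraries of the group was 0.191 on the log2 scale, against 0.129 and 0.134 for replicates 1 and 2. Without it 7 of the 10 genes were still called higher and 1, *LTBP4*, was called lower.

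Scaled by length, *FN1* was the most abundant of the 10 in every group of the first libraries. Levels were taken as cpm per kb of exon, with all 17 libraries scaled together. The length was that of all annotated exons of a gene merged, which exceeds the canonical transcript by unequal shares. It was 17216 against 8390 bases for *FN1*, 17837 against 10927 for *FBN2*, 7348 against 6502 for *LTBP1* and 11521 against 4833 for *LTBP3*. The order and the shares of the sum depend on this choice, and they were not computed with the canonical lengths. In sh1Control *FN1* stood at 21.7 ± 0.784 cpm per kb (SD, n = 3), followed by *FBN2* at 13.3 ± 0.530 and *THBS1* at 12.4 ± 0.630, whose ranges overlapped. *LTBP1* came next at 6.08 ± 0.0843 cpm per kb, and *FBN1* at 1.22 ± 0.108 and *TNC* at 0.355 ± 0.0472 closed the order. The same genes stood first and last in sh4Control and in siControl, although the ranges of *FBN1* and *TNC* overlapped in siControl, where *TNC* was at 0.826 ± 0.110 cpm per kb (n = 2).

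On the same scale, the order in the knockdown groups was another one, and it depends on the length used as well. In shD3 #1 *LTBP1*, at 12.6 ± 0.423 cpm per kb, lay clear above *FBN2* at 9.67 ± 0.453, and *TNC*, at 3.12 ± 0.0813, overlapped with *LTBP2* and lay above *LTBP4* at 1.93 ± 0.492. In shD3 #4 *FN1* stood at 51.3 ± 1.53 cpm per kb and made up 54.6% to 57.2% of the summed level of the 10 genes in a library, compared with 27.9% to 31.9% in sh4Control. *LTBP1* and *THBS1* followed at 10.6 and 10.5 cpm per kb with overlapping ranges, and *FBN2* at 5.17 ± 0.437 overlapped with *SPARC*. In siD3 #3 *FN1* was at 43.0 ± 11.9 cpm per kb, between 30.9% and 48.2% of the sum, and *SPARC* at 12.2 ± 3.71 was in the third place and overlapped with *FBN2* at 14.2 ± 0.915.

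**Figure D3:**
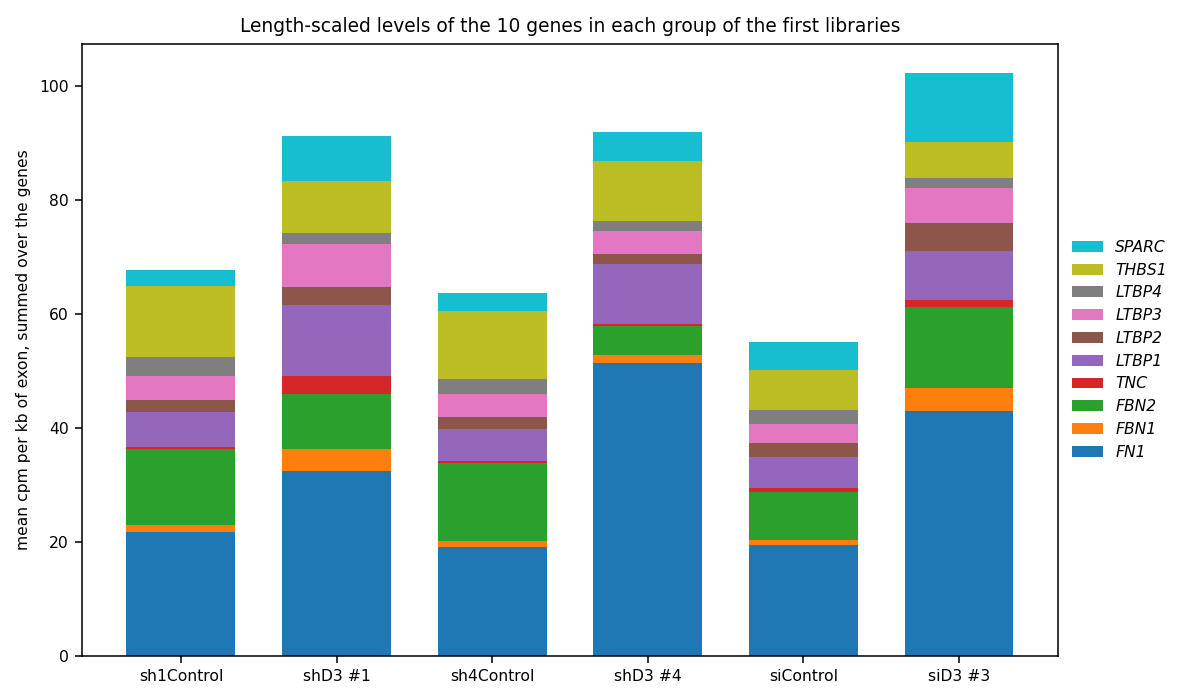
Mean cpm per kb of exon of the 10 genes, stacked, in each control group and each knockdown group of the first libraries. *FN1* is the largest segment of every bar, from 19.0 cpm per kb in sh4Control to 51.3 cpm per kb in shD3 #4, and the *FBN2* segment shrinks in shD3 #4 but grows in siD3 #3.

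The control groups were not alike. *TNC* averaged 7.92 cpm in siControl against 3.40 and 3.69 cpm in sh1Control and sh4Control, *THBS1* 64.3 cpm against 114 and 108 cpm, and for both genes the siControl range lay outside the ranges of the sh controls. The mean of *FN1* was 333 cpm in siControl and 374 and 328 cpm in the sh controls, and the sh4Control range covered those of both other groups. The cell handling that separates siControl from the sh controls cannot be told apart from the harvest day.

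Across the 17 libraries, the members fell into no single pattern. Pearson's r of log2 cpm was 0.904 between *FBN1* and *LTBP3*, 0.792 between *FN1* and *LTBP1*, 0.104 between *FN1* and *TNC* and −0.770 between *FN1* and *LTBP4*. The libraries fall into 6 groups, and these values describe group differences as much as library differences. Among 10759 genes searched, those with the pattern most like *FN1* were *STAT2* (r = 0.961), *HS3ST3B1* (0.956) and *MAP2* (0.948). For *FBN1* they were *CERCAM* (0.974), *MFGE8* (0.972) and *TM7SF3* (0.968), and for *TNC* they were *GFPT2* (0.984), *EMP1* (0.973) and *TMEM156* (0.972). The genes most like *TNC* had log2 fold changes of 1.14 to 1.86 in shD3 #1, of −0.20 to −0.07 in shD3 #4 and of 0.29 to 0.58 in siD3 #3. They were picked for their likeness to *TNC* over these same libraries, so that this pattern follows from the choice.

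The promoters of *FN1*, *LTBP1* and *SPARC* are printed because these 3 genes share the call higher in all 3 knockdowns, though not the size of the change, with sequences from RefSeq (GRCh38.p14), from 250 bases before to 50 bases after the start, 5′ to 3′ along the gene. All 10 genes matched at least 1 promoter, with 14 windows in all, and the first window is shown for *LTBP1*. Capitals mark exact matches on either strand of the TATA box TATAAA, the GC box GGGCGG, the cyclic AMP response element (CRE) TGACGTCA, the AP-1 site TGANTCA and the TEAD site GGAATG. The windows are chr2:215436019-215436318 (minus strand) for *FN1*, chr2:32946703-32947002 (plus strand) for *LTBP1* and chr5:151686866-151687165 (minus strand) for *SPARC*.
FN1 promoter: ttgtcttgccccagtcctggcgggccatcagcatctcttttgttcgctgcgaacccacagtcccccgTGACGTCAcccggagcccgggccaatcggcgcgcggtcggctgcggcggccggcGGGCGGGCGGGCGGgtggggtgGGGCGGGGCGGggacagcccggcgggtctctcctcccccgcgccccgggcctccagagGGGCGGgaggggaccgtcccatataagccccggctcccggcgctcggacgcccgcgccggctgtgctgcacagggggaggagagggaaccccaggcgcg
LTBP1 promoter: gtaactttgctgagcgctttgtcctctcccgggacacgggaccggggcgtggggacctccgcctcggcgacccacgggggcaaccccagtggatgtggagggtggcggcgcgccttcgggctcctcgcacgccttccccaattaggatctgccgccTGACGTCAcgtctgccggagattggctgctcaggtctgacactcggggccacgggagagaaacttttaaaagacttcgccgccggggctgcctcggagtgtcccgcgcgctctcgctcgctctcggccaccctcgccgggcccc
SPARC promoter: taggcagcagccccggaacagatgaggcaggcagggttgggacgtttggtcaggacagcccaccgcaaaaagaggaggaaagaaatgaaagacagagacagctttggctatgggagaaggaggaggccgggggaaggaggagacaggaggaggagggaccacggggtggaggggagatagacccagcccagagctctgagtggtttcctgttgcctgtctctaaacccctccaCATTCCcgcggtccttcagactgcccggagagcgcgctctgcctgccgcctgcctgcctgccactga

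The *FN1* window held 6 GC boxes, counting overlapping matches each, and 1 CRE, and that of *LTBP1* held 1 CRE and no GC box. The *SPARC* window held 1 TEAD site and no other of these motifs. Of 35116 promoters of the same length, 1.85% held the CRE, 45.0% the GC box, 14% the TEAD site, 11.5% the TATA box and 7.71% the AP-1 site. The window of *FBN2* held 4 GC boxes and that of *TNC* 1, with no CRE in either. A TEAD site also lay in the windows of *FBN1* and *THBS1* and in 1 window of *LTBP4*. Another window of *LTBP4*, which was called lower in both shRNA knockdowns, held 6 GC boxes, as many as that of *FN1*. The windows of *LTBP1* that are not shown held none of the motifs. The GC content of the 3 printed windows was 76.7%, 68.7% and 61.3%, where the median of all promoters was 58.7%. A match is a run of letters and not a site of binding, and a motif that is absent from a window may lie outside it.

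Genes that work with these proteins were followed as 4 lists, to be read against the shares called and the medians of all genes given above. Of 25 elastic fibre and microfibril partners (elastin, fibulins, EMILINs, MFAPs, lysyl oxidases and ADAMTS relatives), 14 were tested in shD3 #1, of which 1 was called higher and 7 lower, with a median log2 fold change of −0.60. *ADAMTS6*, a protease linked to microfibrils, rose from 1.52 ± 0.164 to 14.6 ± 0.543 cpm (SD, n = 3), and *FBLN5*, which helps elastin assemble, went from 2.38 ± 0.492 to 0.364 ± 0.199 cpm. The deep libraries gave 2 higher and 9 lower of 19 tested, with a median of −0.47. Their largest change up was again *ADAMTS6*, at 3.53 ± 0.12, and the largest down *EMILIN3*, at −1.94 ± 0.48 from a control level of 0.336 cpm. In shD3 #4 the split was 3 higher and 1 lower of 14 (median 0.07), where *HMCN1*, encoding hemicentin 1, changed by 1.38 ± 0.19 and *EFEMP1*, encoding fibulin 3, by −1.17 ± 0.08. siD3 #3 gave 0 higher and 3 lower of 15 (median 0.14), between *THSD4* at −0.60 ± 0.14 and *ELN*, the elastin gene, at −1.10 ± 0.36, which stood at 1.18 cpm in siControl. With any 1 library of siControl or siD3 #3 left out only 0 to 2 were lower, the call of *ELN* was lost each time, and that of *THSD4* was lost without siControl replicate 1 or siD3 #3 replicate 3. In shD3 #1 the 7 lower became 3 with glmTreat and 4 with a log2 threshold of 1 or a filter of 10 counts in every library.

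Another list held 24 genes, mostly relatives of tenascin, thrombospondin and SPARC and the CCN proteins. It also held *SPP1*, *POSTN*, *TGFBI* and *VTN*, matrix genes that belong to none of these families. Of this list siD3 #3 called 8 higher and 0 lower of 15 tested (median log2 fold change 1.02). The changes named by the rule were *CCN2* at 0.89 ± 0.25 and *VTN*, the vitronectin gene, at 1.77 ± 0.57. Without either siControl library 4 were higher, with DESeq2 5 and with glmTreat 2. The call of *VTN* was lost without any 1 library except siD3 #3 replicate 3, and that of *CCN2* without either siControl library. In shD3 #1 the split was 4 higher and 6 lower of 14 (median −0.15). *SPOCK3*, a proteoglycan of the SPARC family, rose there from 0.911 ± 0.254 to 8.54 ± 0.919 cpm, and *FSTL1*, another relative of SPARC, fell from 92.4 ± 5.78 to 25.1 ± 1.59 cpm. shD3 #4 called 6 higher and 3 lower of 14 (median 0.20), with *SPOCK3* at 1.40 ± 0.28 and *CCN1* at −1.06 ± 0.10 on the log2 scale. The deep libraries called 2 higher and 6 lower of 15 (median −0.13), with *SPOCK3* at 4.00 ± 0.10. *CCN4* was their lowest, at 0.375 ± 0.141 cpm in the controls and 0.0584 ± 0.0718 cpm in shD3 #1.

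Of 16 receptors of fibronectin, tenascin and thrombospondin, mostly integrins, 6 were called higher and 1 lower of 14 tested in shD3 #1 (median 0.51), 3 and 1 of 13 in shD3 #4 (median −0.01), 5 and 0 of 15 in siD3 #3 (median 0.26) and 5 and 1 of 14 in the deep libraries (median 0.35). The thrombospondin receptor *CD36* stood highest in fold in shD3 #1 but at low levels, 0.148 ± 0.145 cpm in the controls and 1.18 ± 0.254 cpm in the knockdown, as did *ITGA9* in siD3 #3, at 0.0965 ± 0.0595 and 0.887 ± 0.295 cpm. *ITGB8*, an integrin subunit that activates latent TGF-beta, rose from 10.3 ± 3.17 to 21.4 ± 1.65 cpm in siD3 #3 and from 13.6 ± 0.201 to 71.4 ± 2.84 cpm in the deep libraries. *ITGB3*, the beta subunit of the vitronectin receptor, fell by 1.73 ± 0.12 on the log2 scale in the deep libraries. Its change of −0.77 ± 0.30 in shD3 #1, the 1 lower call there, was no longer called when any 1 library but shD3 #1 replicate 2 was left out, nor with DESeq2, glmTreat or 1 fit of all 17 libraries. In shD3 #4 the extremes were *ITGB6*, at 1.03 ± 0.12, and *ITGA4*, at −0.70 ± 0.19, which was not called without sh4Control replicate 1, with glmTreat or in 1 fit of all 17 libraries. Without siControl replicate 1 the count in siD3 #3 was 2 higher, and *ITGA9* was not among them.

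Of 20 genes of latent TGF-beta and its activation, shD3 #1 called 5 higher and 1 lower of 15 tested (median 0.27), shD3 #4 called 2 and 2 of 15 (median 0.10), siD3 #3 called 8 and 0 of 17 (median 0.57) and the deep libraries 4 and 3 of 16 (median 0.29). *FURIN*, the protease that cleaves the TGF-beta precursor, rose in shD3 #1 from 68.8 ± 2.05 to 145 ± 9.26 cpm, and *TGFBR1*, the type I receptor, fell from 74.1 ± 6.05 to 30.4 ± 1.95 cpm. In shD3 #4 *TLL1*, a protease of the BMP1 family, rose by 1.51 ± 0.11 on the log2 scale. *TGFB2*, a ligand, rose in siD3 #3 from 101 ± 8.64 to 166 ± 8.53 cpm, and *MMP9* was at 0.317 ± 0.140 and 2.81 ± 2.73 cpm, with a spread as large as its mean. Its call was lost without either siControl library or siD3 #3 replicate 2, and without siControl replicate 1 the count in siD3 #3 was 5 higher. In the deep libraries *LRRC32* stood at 0.240 ± 0.0536 and 0.827 ± 0.137 cpm, and *MMP2* changed by −0.88 ± 0.13.

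**Figure D4:**
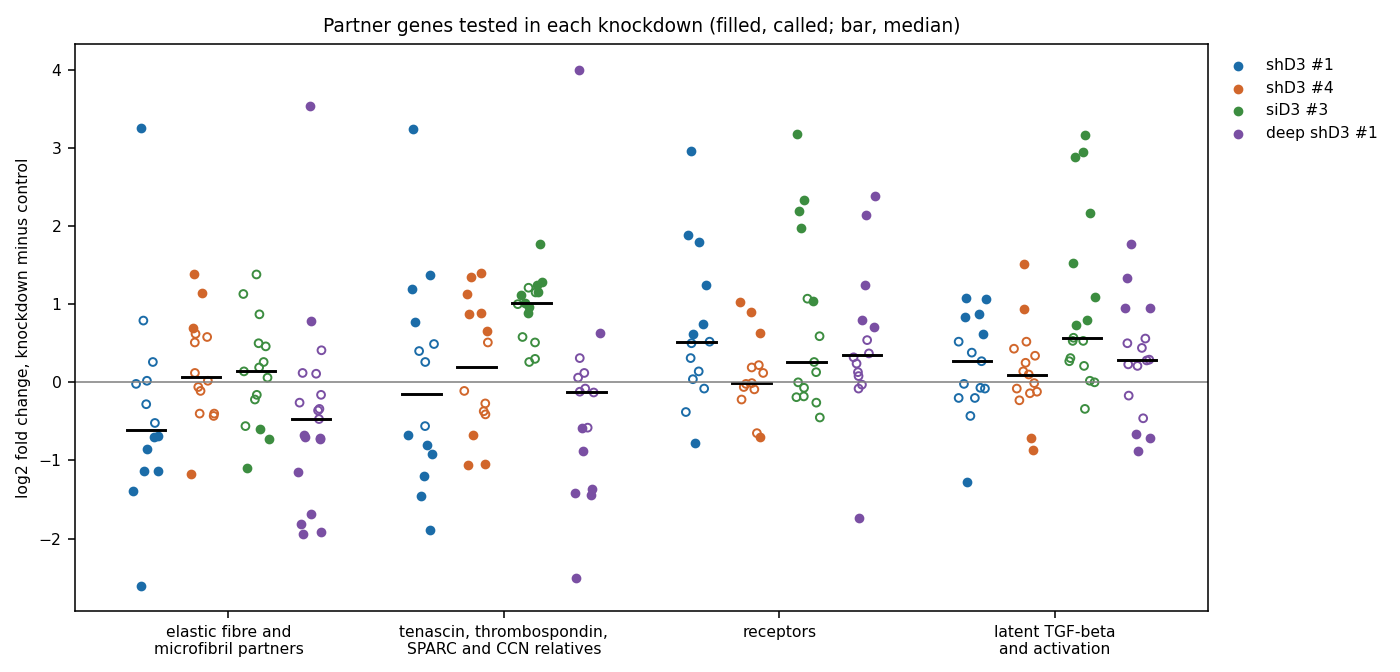
Log2 fold change, knockdown minus control, of each partner gene tested, by list and comparison, with called genes filled and a bar at the median. The microfibril partners centre below 0 in shD3 #1 (median −0.60) and deep shD3 #1 (−0.47). The list of tenascin, thrombospondin, SPARC and CCN relatives, which also holds other matrix genes, centres at 1.02 in siD3 #3.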

How the data were processed

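The authors depleted ribosomal RNA, prepared directional libraries, trimmed reads (Trimmomatic 0.40 in the submitters' processing notes) and counted them on genes with STAR 2.7.10a on GRCh38.p14. The deposited values are counts, as whole reads per gene, in 1 table of 17 libraries (61806 Ensembl genes, 61757 with a GENCODE symbol) and 1 of 6 deep libraries (42901 symbols). The methods name RefSeq annotation. No column was left out.

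Knockdown and control libraries of each type were fitted in edgeR 4.0.16 (R 4.3.3) over all genes, after filterByExpr and TMM, and tested by quasi-likelihood with Benjamini-Hochberg adjustment. The standard error of a log2 fold change was derived from the test, as the size of the change divided by the square root of its F statistic. The difference between knockdowns was the interaction of knockdown and condition in 1 fit of 17 libraries. The fits were also run on simulated data, in which far fewer genes changed than were called here. Those runs therefore do not test the scaling at the shares called in these data. Lengths, positions and exon overlaps came from GENCODE 44. Likeness used Pearson's r of log2 TMM cpm (prior count 2) over protein-coding genes with a mean log2 cpm of at least 2.

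The members, lists and tests were chosen with earlier results of these data known. Named genes were the members, *THUMPD3*, the called gene of each list with the largest and the smallest log2 fold change in each comparison, the 3 genes most like *FN1*, *FBN1* and *TNC*, and the cell type markers. 1 gene that this rule names is not reported here.

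Alternatives were DESeq2 1.42.0, its size factors in edgeR, 2 other filters, a log2 threshold of 1, glmTreat, 1 fit of 17 libraries, mitochondrial genes left out, a replicate block, and each library left out. Counting precision is limited for genes near 1 cpm. *SPOCK3*, *ITGB8* and *TGFBR2* in the closing section were chosen after their values were seen.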

Additional observations from a re-analysis of the deposited data

Results flagged for a closer look

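The change after THUMPD3 depletion differed between the 3 knockdowns of the first libraries for 7 of the 10 genes, by the edgeR quasi-likelihood test of the interaction of knockdown and condition. The adjusted p-value was 3.25e-10 for *FBN2*, which was called lower in shD3 #4 and higher in siD3 #3, and 1.75e-07 for *FBN1*, which rose less in shD3 #4. It was 3.18e-06 for *LTBP2* and 3.84e-06 for *TNC*, whose level moved several-fold in shD3 #1. For *LTBP3* it was 0.000567 and for *FN1* 0.00462, with the largest rise of *FN1* in shD3 #4. For *LTBP1* it was 0.0363, and that call was lost when single libraries were left out. Across all genes 52.4% passed the same test, so that a difference between knockdowns is common in these data.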

How the results depend on the processing

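Over the tests of single members under all alternatives, 764 results kept their direction and their side of the threshold, 36 no longer passed it, 9 newly passed it and 1 reversed, *TNC* in siD3 #3 (log2 fold change −0.01 to 0.94 with 1 library left out, the first without siD3 #3 replicate 3). With a log2 threshold of 1 the members called lower were 0 in shD3 #1, 1 in shD3 #4 and 0 in deep shD3 #1, and those called higher were 1 in shD3 #4 and 3 in siD3 #3. With glmTreat 0 were lower in shD3 #1, 1 was lower in shD3 #4 and 2 were higher in siD3 #3. The other alternatives, DESeq2 included, left these counts within 1.5 times, apart from the block and the library named next. With 1 replicate left out at a time, 5 to 6 members were higher in shD3 #1, 5 to 7 higher and 0 to 1 lower in siD3 #3, and 6 to 8 differed between knockdowns. The member lower in siD3 #3 appeared without siD3 #3 replicate 3 and was *LTBP4*. Where 1 siControl library was left out, the other was assumed to vary like siD3 #3.

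Same-numbered libraries correlated in their deviations from the group means at −0.108 to 0.142. Both ends come from siD3 #3, where the deviations of the 2 siControl libraries mirror each other, which forces opposite signs. In shD3 #4 the same-numbered values were 0.038, 0.056 and 0.003. These values are small and cannot decide whether the numbers pair the libraries. With the replicate number as a block, 1 member was lower in siD3 #3 (*LTBP4*, −0.66), and 6 differed between knockdowns, with *LTBP1* at an adjusted p of 0.0534. The causes of these shifts were not tested. Counts limit the genes below about 1 cpm in the partner lists more than the members, and 2 siControl libraries limit every siD3 #3 value. Of the partner lists in siD3 #3, glmTreat left 0 elastic fibre partners lower. It left 2 genes of the list of tenascin, thrombospondin and SPARC relatives, 2 receptors and 5 latent TGF-beta genes higher. The elastic fibre partners higher there rose from 0 to 5 without a filter and to 4 in 1 fit of all 17 libraries.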

Other observations

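Among the partner genes, *TGFBR2*, the type II receptor of TGF-beta, was called higher in all 4 comparisons, with log2 fold changes of 1.07 ± 0.07 (SE) in shD3 #1, 0.94 ± 0.07 in shD3 #4, 0.80 ± 0.14 in siD3 #3 and 0.95 ± 0.04 in deep shD3 #1. *ITGB8* was likewise called in all 4, at 1.88 ± 0.08, 0.90 ± 0.11, 1.04 ± 0.19 and 2.39 ± 0.05. *SPOCK3* gave 3.24 ± 0.20, 1.40 ± 0.28, 1.02 ± 0.24 and 4.00 ± 0.10, from control levels of 0.707 to 1.35 cpm. All 3 genes were picked from the lists after their values were seen.

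The epithelial markers did not move alike. In shD3 #1 *KRT7*, *KRT8*, *KRT18*, *KRT19* and *EPCAM* were higher than in sh1Control, at 2185 against 1492, 2851 against 2233, 2587 against 2253, 95.4 against 24.6 and 19.4 against 9.82 cpm on average, while *CDH1*, encoding E-cadherin, was lower, at 45.0 against 119 cpm. The deep libraries had the same directions for these 6 genes. In shD3 #4 *KRT7*, *KRT8*, *KRT18* and *EPCAM* were lower than in sh4Control, at 954 against 1693, 2014 against 2517, 1959 against 2453 and 7.98 against 10.9 cpm, while *KRT19* and *CDH1* were higher, at 24.8 against 20.5 and 133 against 108 cpm. In siD3 #3 the means of *CDH1* (124 against 86.6 cpm), *KRT8* (2036 against 1896 cpm) and *KRT19* (114 against 42.8 cpm) were higher and those of *KRT7*, *KRT18* and *EPCAM* lower than in siControl. The libraries of siD3 #3 spread widely, with the sum of the epithelial markers at 3759 to 6531 cpm. That range covers the 5165 to 6136 cpm of siControl. These means are given without a test, and the part of the markers in the results for the matrix genes was not tested.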
